A study of Mus musculus with 10 samples.

Results

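Cholesterol synthesis genes and the regulators of the SREBP pathway were read in mouse brain hemispheres 24 h after stroke. The genes examined were Hmgcs1, Idi1, Fdft1, Sqle, Cyp51, Insig1 and Srebf2, 7 of the 18193 genes measured. Each was read through the probe sets that the platform annotation assigns to that symbol alone, and where there were several, the brightest on average across the 10 arrays stood for the gene. That rule compares no groups.

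RNA came from the operated hemisphere of male mice, on Affymetrix arrays, 1 array per sample. Middle cerebral artery occlusion (MCAO) blocks a main artery of the brain and is a model of ischemic stroke. There were 3 Hsp72Tg mice and 3 WT mice with MCAO, and 2 Hsp72Tg mice and 2 WT mice with sham surgery. Hsp72Tg mice overexpress Hsp72, the inducible heat shock protein, and WT mice carry no such transgene. The labels name neither the promoter or species of the transgene nor the age of the mice. The tissue was a whole hemisphere, so fewer cells of a type and less RNA per cell cannot be told apart.

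Brain makes its own cholesterol, because the blood-brain barrier holds back the cholesterol of plasma lipoproteins. Oligodendrocytes use it for myelin, and astrocytes supply it to neurons on lipoproteins. The enzymes of the path are transcribed under SREBP2, the product of Srebf2. When sterols are plentiful, Insig proteins hold SREBP2 and its escort SCAP in the endoplasmic reticulum; when sterols are scarce, SREBP2 is cut and its free end enters the nucleus. Insig1 and Srebf2 are themselves SREBP2 targets.

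Promoter sequence is shown for 4 of the genes, because SREBP2 works through short elements close to the start site, together with the CCAAT-binding factor NF-Y. RefSeq promoters (GRCm38.p6) matched 5 of the 7 genes. Those of Idi1 and Cyp51, the pair with the highest Pearson r over the 10 arrays, of Hmgcs1, which holds a match to the sterol regulatory motif TCACNCCAC, and of Srebf2, which encodes the factor itself, are printed 5′ to 3′ on the gene's strand. Each is 250 bases long and ends at the base before the start site. Capitals mark TCACNCCAC and CCAAT on either strand. The regions are chr13:119690101-119690350 (+) for Hmgcs1, chr13:8885356-8885605 (+) for Idi1, chr5:4104698-4104947 (-) for Cyp51 and chr15:82147019-82147268 (+) for Srebf2.
Hmgcs1: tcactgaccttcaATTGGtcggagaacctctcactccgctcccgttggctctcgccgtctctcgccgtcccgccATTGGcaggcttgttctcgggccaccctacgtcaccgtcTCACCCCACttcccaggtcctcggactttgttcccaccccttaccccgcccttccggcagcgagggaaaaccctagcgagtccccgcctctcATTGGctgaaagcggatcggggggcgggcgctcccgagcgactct
Idi1: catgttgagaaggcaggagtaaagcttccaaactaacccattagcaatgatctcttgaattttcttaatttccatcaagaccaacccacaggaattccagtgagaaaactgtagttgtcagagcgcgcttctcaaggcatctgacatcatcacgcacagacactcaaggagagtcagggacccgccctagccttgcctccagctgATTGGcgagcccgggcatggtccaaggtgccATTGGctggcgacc
Cyp51: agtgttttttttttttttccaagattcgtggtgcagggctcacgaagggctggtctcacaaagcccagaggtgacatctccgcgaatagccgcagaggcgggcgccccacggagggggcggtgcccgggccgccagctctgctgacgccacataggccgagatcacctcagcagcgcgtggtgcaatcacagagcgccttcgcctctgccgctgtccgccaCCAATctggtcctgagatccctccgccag
Srebf2: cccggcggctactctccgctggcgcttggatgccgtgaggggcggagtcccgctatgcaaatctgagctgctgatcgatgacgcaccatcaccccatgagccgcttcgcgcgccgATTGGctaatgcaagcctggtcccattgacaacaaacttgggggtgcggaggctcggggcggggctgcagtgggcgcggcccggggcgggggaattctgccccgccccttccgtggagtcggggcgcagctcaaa

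TCACNCCAC was found in 1 of the 5 promoters, that of Hmgcs1, where TCACCCCAC begins 137 bases before the start site. Of all 32851 RefSeq promoter windows of that length, 1.05% held it. CCAAT was found in all 5 (33.8% of all windows), with 3 matches in Hmgcs1, 2 in Idi1 and 1 each in Cyp51, Insig1 and Srebf2. GGGCGG, the GC box, was also in all 5 (32.7% of all windows), and the palindrome CACGTG, an E box, was in Insig1 alone (6.02% of all windows). In these promoters 0 pairs of different motifs overlapped. These are exact matches of letters and were not tested as binding sites. Elements that differ from these letters were not searched for, so a promoter without a match may still hold one.

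Arrays that stood apart bear on every result below. On the first principal component over all genes (50.3% of the variance), Hsp72Tg MCAO 1 lay at -12.9, between the other 5 MCAO arrays (11.7 to 32.3) and the sham arrays (-23.7 to -20.7). The mean log2 level of 10 reactive astrocyte markers was 9.03 in that array, against 10.1 to 10.6 in the other MCAO arrays and 7.61 to 7.77 in sham arrays. WT sham 1 carried a cerebellar signal that no other array had: Gabra6, a receptor subunit of cerebellar granule cells, read 9.46 there and 4.15 to 4.49 in the other 9 arrays. Neuron markers averaged 12.3 to 12.7 and astrocyte markers 11.5 to 11.8 in all arrays, above the array medians of 6.67 to 6.73. The Hsp72 gene Hspa1b read 9.12 and 9.15 in Hsp72Tg sham and 9.38 and 9.48 in WT sham, and Hspa1a read 8.28 and 8.53 in Hsp72Tg sham and 8.54 and 8.45 in WT sham, so neither separated the transgenic sham arrays upwards. The labels do not say whether these probe sets match the transgene, so they do not check the genotype.

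None of the 7 genes passed the test for MCAO against sham over both genotypes, with 6 arrays against 4. The test was limma on the log2 values of all genes, two-sided, with a Benjamini-Hochberg adjusted p under 0.05 as the threshold. Over all genes 1.46% passed (266), and 0 of the 7 did. The labels name separate samples, and p-values measure the spread between these arrays. At an unadjusted p under 0.05 the count was also 0 of 7, against 19.1% of all genes. The changes ran from -0.10 for Srebf2 to 0.27 for Insig1, with a median of 0.10 beside a median of -0.03 over all genes. In value, 6 of 7 were higher after MCAO, as were 42.5% of all genes. The 95% intervals of the 7 genes together spanned 0.77-fold, the lower bound of Idi1, to 1.55-fold, the upper bound of Insig1.

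**Figure D1:**
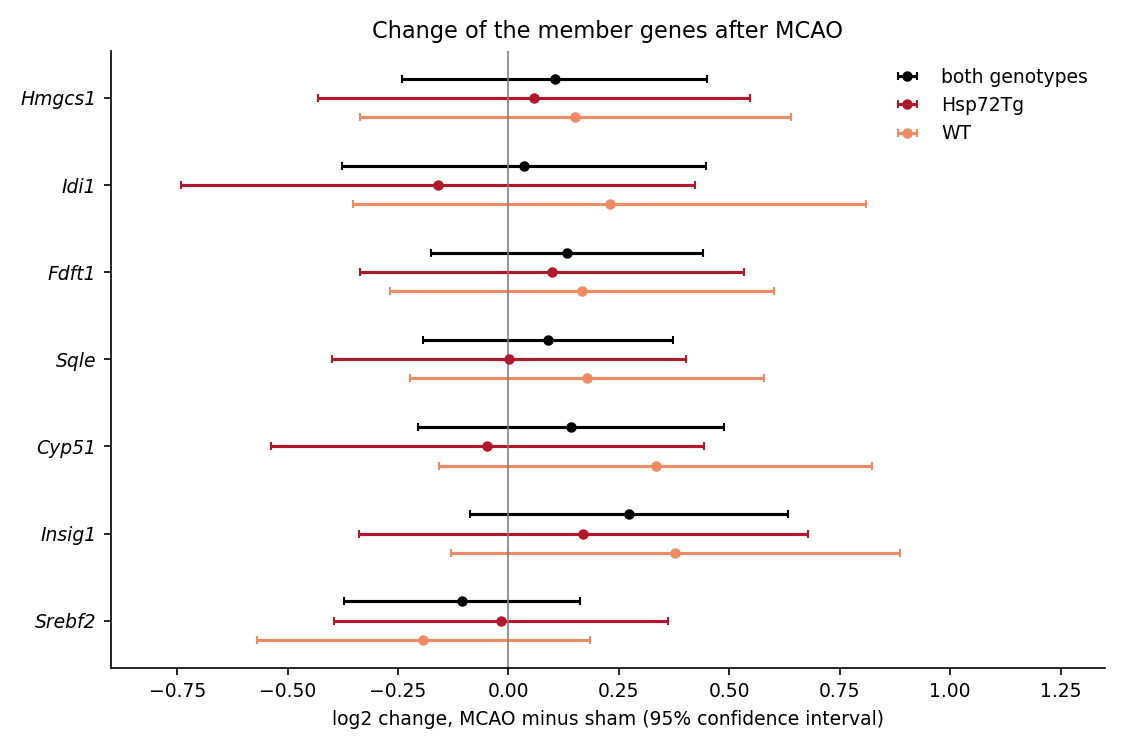
Log2 change of each gene, MCAO minus sham, over both genotypes (black), in Hsp72Tg (red) and in WT (orange); points are limma estimates and bars 95% confidence intervals. All 21 intervals include 0, and the estimates lie between -0.19 for Srebf2 in WT and 0.38 for Insig1 in WT.

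Early steps of the path were read through Hmgcs1 and Idi1. Hmgcs1 encodes HMG-CoA synthase, an enzyme at the start of the mevalonate path. Its log2 values were 11.83, 12.46 and 12.34 in Hsp72Tg MCAO and 12.35, 12.33 and 12.11 in WT MCAO, against 12.08 and 12.23 in Hsp72Tg sham and 11.78 and 12.44 in WT sham. The lowest values were in WT sham 1 and Hsp72Tg MCAO 1, and the MCAO and sham arrays overlapped. The change over both genotypes was 0.10 (SE 0.15, limma adjusted p = 0.757). Leaving out WT sham 1 turned it to -0.06, and leaving out WT sham 2 made it 0.27.

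Idi1 encodes isopentenyl diphosphate isomerase, which interconverts the isoprenoid units of the path. It read 9.14, 9.84 and 10.23 in Hsp72Tg MCAO, so the lowest and the highest of all 10 values lay in this group (SD 0.55). It read 9.83, 9.99 and 9.81 in WT MCAO, 9.95 and 9.84 in Hsp72Tg sham and 9.44 and 9.85 in WT sham. Its change was 0.035 (SE 0.18, limma adjusted p = 0.941). It was 0.18 without Hsp72Tg MCAO 1 and -0.09 without Hsp72Tg MCAO 3.

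The squalene steps were read through Fdft1 and Sqle. Fdft1, squalene synthase, commits the path to sterols. It read 10.56, 11.06 and 11.15 in Hsp72Tg MCAO and 11.26, 11.06 and 10.88 in WT MCAO, against 10.97 and 10.68 in Hsp72Tg sham and 10.73 and 11.07 in WT sham. Both groups of MCAO arrays overlapped their sham arrays, and the change was 0.13 (SE 0.14, limma adjusted p = 0.646). The other 3 probe sets of Fdft1 gave changes of 0.11 to 0.17, none of which passed.

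Sqle encodes squalene epoxidase, a further control point of the path. Its values were 10.37, 10.40 and 10.93 in Hsp72Tg MCAO and 10.65, 10.85 and 10.65 in WT MCAO, against 10.48 and 10.65 in Hsp72Tg sham and 10.36 and 10.72 in WT sham. Here 2 of the 3 Hsp72Tg MCAO arrays were among the lowest of all, and the third was the highest. The change was 0.089 (SE 0.13, limma adjusted p = 0.749).

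Cyp51, lanosterol demethylase, works on the first sterols of the path. It read 8.68, 9.28 and 9.46 in Hsp72Tg MCAO and 9.36, 9.43 and 9.28 in WT MCAO, against 9.27 and 9.11 in Hsp72Tg sham and 8.77 and 9.28 in WT sham. The low arrays were again Hsp72Tg MCAO 1 and WT sham 1. Its change was 0.14 (SE 0.15, limma adjusted p = 0.662), 0.016 without WT sham 1 and 0.27 without WT sham 2.

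Insig1, which anchors SREBP2 and SCAP in the endoplasmic reticulum, had the smallest p of the 7. It read 7.67, 8.38 and 8.13 in Hsp72Tg MCAO and 8.42, 8.24 and 8.06 in WT MCAO, against 8.18 and 7.60 in Hsp72Tg sham and 7.72 and 8.01 in WT sham. In WT the 3 MCAO arrays all lay above the 2 sham arrays, and in Hsp72Tg the groups overlapped. Such a separation upwards in WT was present in 16.4% of all genes and in 1 of the 7. The change was 0.27 (SE 0.16, unadjusted p = 0.12, limma adjusted p = 0.39).

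Srebf2 encodes SREBP2 itself. Its values were 10.22, 9.84 and 9.89 in Hsp72Tg MCAO and 9.85, 9.88 and 9.81 in WT MCAO, against 9.75 and 10.25 in Hsp72Tg sham and 9.88 and 10.20 in WT sham. The 3 high arrays, Hsp72Tg MCAO 1, Hsp72Tg sham 2 and WT sham 2, came from 3 different groups. The change was -0.10 (SE 0.12, limma adjusted p = 0.68), and its second probe set gave 0.039, the opposite sign. The activity of SREBP2 is set by cleavage of the protein, which arrays do not measure.

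**Figure D2:**
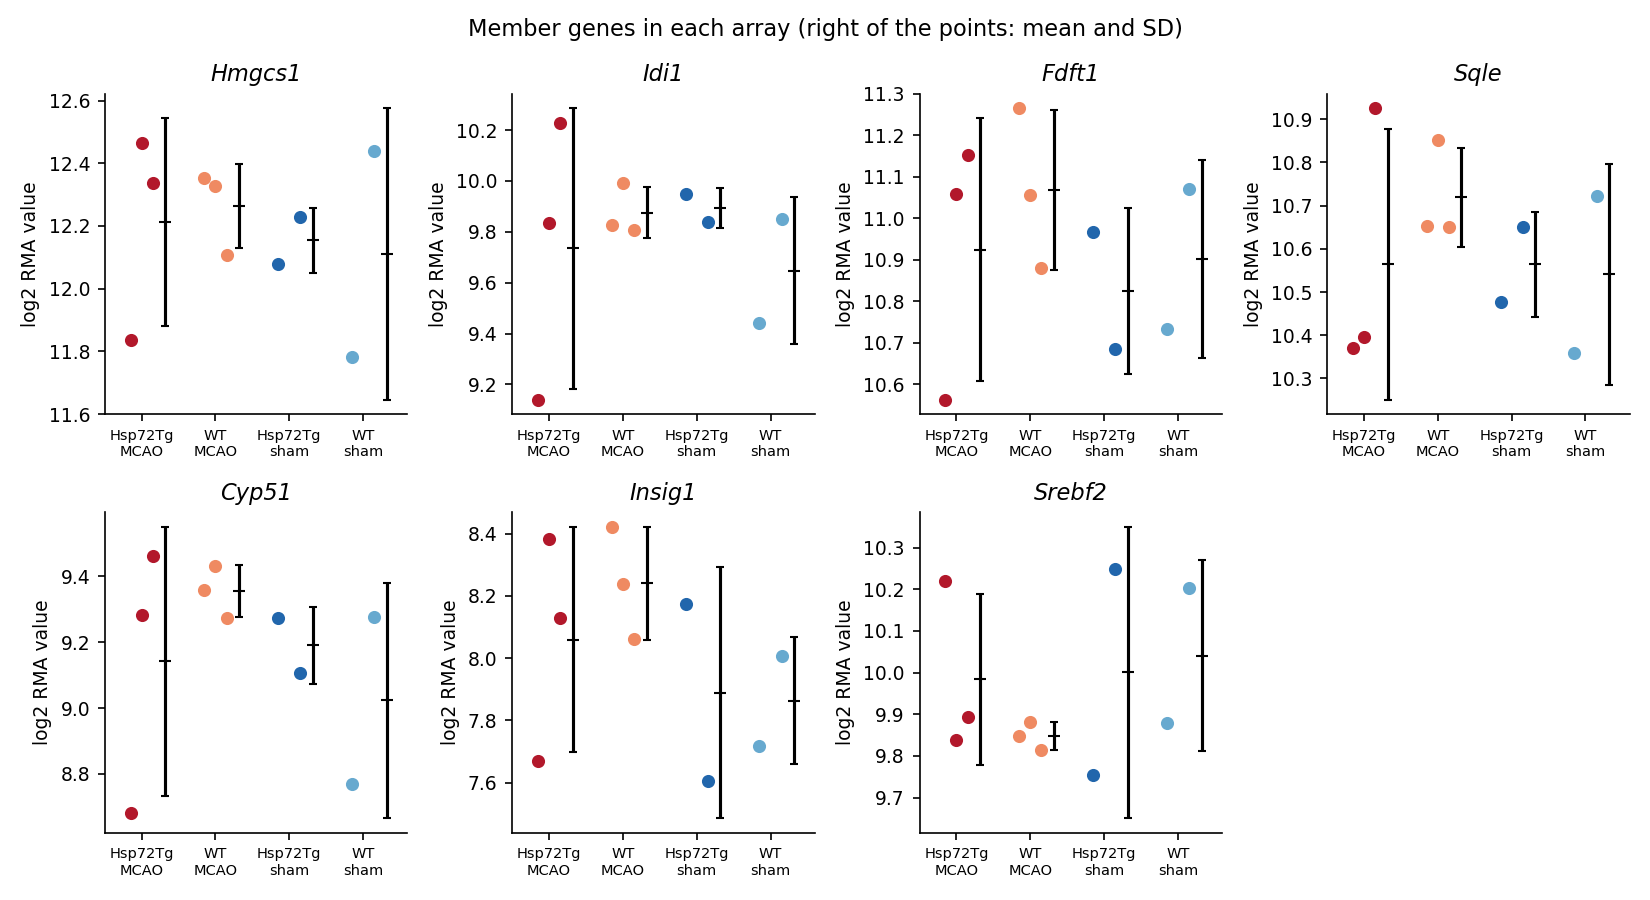
Log2 RMA value of each gene in each array (points), by group, with the group mean and SD to the right of the points (n = 3 for MCAO groups, n = 2 for sham groups); each panel has its own axis, which does not start at 0. MCAO and sham arrays overlap in every panel when both genotypes are pooled, Insig1 in WT is separate, and in Idi1 the lowest (9.14) and highest (10.23) values both belong to Hsp72Tg MCAO.

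The sham mice of each genotype are the controls for the MCAO mice of that genotype. In WT, 0 of the 7 genes passed, against 0.055% of all genes (10), and 0 of 7 had an unadjusted p under 0.05, against 10.2% of all genes. The WT changes ran from -0.19 for Srebf2 to 0.38 for Insig1 (SE 0.23), with 0.33 for Cyp51 (SE 0.22) and a median of 0.18. These values moved with the WT sham arrays. Without WT sham 1 Hmgcs1 stood at -0.18, Cyp51 at 0.080 and Insig1 at 0.23, and without WT sham 2 they stood at 0.48, 0.59 and 0.52.

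In Hsp72Tg, 0 of the 7 genes passed, against 0.022% of all genes (4), and 0 of 7 had an unadjusted p under 0.05, against 12% of all genes. The Hsp72Tg changes ran from -0.16 for Idi1 (SE 0.26) to 0.17 for Insig1 (SE 0.23), and the median was 0.00024, the value of Sqle. Without Hsp72Tg MCAO 1, the Hsp72Tg values were 0.25 for Hmgcs1, 0.14 for Idi1, 0.28 for Fdft1, 0.097 for Sqle, 0.18 for Cyp51, 0.37 for Insig1 and -0.13 for Srebf2, and none of the 7 passed (smallest limma adjusted p = 0.325). In that fit 2251 genes, 12.4% of all, passed for MCAO over both genotypes, and again 0 of the 7 did (smallest limma adjusted p = 0.109).

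The genotypes were then compared directly. After MCAO, 6 of the 7 genes were lower in value in Hsp72Tg than in WT, as were 56% of all genes, and 0 of 7 passed, against 0% of all genes (0). At an unadjusted p under 0.05 limma gave 0 of the 7 and 2.68% of all genes. The differences, Hsp72Tg minus WT, ran from -0.21 for Cyp51 (SE 0.20, interval -0.65 to 0.22) to 0.14 for Srebf2 (SE 0.15). The signs rested on Hsp72Tg MCAO 1. Without that array Cyp51 differed by 0.017, Idi1 by 0.16, Hmgcs1 by 0.14, Fdft1 by 0.037 and Insig1 by 0.015, each with the opposite sign, and Sqle by -0.058. After sham surgery, 0 of 7 passed, against 0% of all genes (0), and the differences ran from -0.077 for Fdft1 (SE 0.21) to 0.25 for Idi1 (SE 0.28). At an unadjusted p under 0.05 limma gave 0 of the 7 there, against 1.56% of all genes.

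Whether the MCAO change itself differed between genotypes was tested as the Hsp72Tg change minus the WT change. It ran from -0.39 for Idi1 (SE 0.37, interval -1.21 to 0.43) to 0.18 for Srebf2 (SE 0.24). For this difference 0 of 7 passed, against 0% of all genes (0), and 0 of 7 had an unadjusted p under 0.05, against 1.75% of all genes. The 95% intervals of this difference reached 0.432-fold for Idi1 at the low end and 1.64-fold for Srebf2 at the high end.

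The spread of these genes between arrays followed a shared pattern. With each gene centred on its mean, the mean of the 7 was -0.32 in Hsp72Tg MCAO 1 and -0.29 in WT sham 1, and between -0.052 and 0.20 in the other 8 arrays. In Hsp72Tg MCAO 1, 6 of the 7 genes were among their 2 lowest values, and in WT sham 1, 4 were. Srebf2 was the exception in Hsp72Tg MCAO 1, where it was at its second highest value. Oligodendrocyte markers averaged 10.997 in Hsp72Tg MCAO 1 and 11.05 in WT sham 1, the lowest of the 10 arrays, with WT MCAO 1 close to them at 11.06. Both low averages leaned on 1 of the 9 markers, Opalin, which read 8.038 and 8.105 there against 8.764 to 9.889 in the other arrays. By group these 9 markers averaged 10.997 to 11.455 in Hsp72Tg MCAO, 11.06 to 11.2 in WT MCAO, 11.25 to 11.3 in Hsp72Tg sham and 11.05 to 11.2 in WT sham. For MCAO over both genotypes 1 of the 9 fell, the myelin protein gene Mog, by 0.58 (SE 0.12, limma adjusted p = 0.0477), and 0 rose, against 1.46% of all genes that passed. In value, 5 of the 9 were higher after MCAO, with Cldn11 at 0.34 (SE 0.092, limma adjusted p = 0.0962) and Mobp at 0.29 (SE 0.090, limma adjusted p = 0.13), and the list median was 0.011. The part of oligodendrocyte RNA in the pattern of the sterol genes was not tested.

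**Figure D3:**
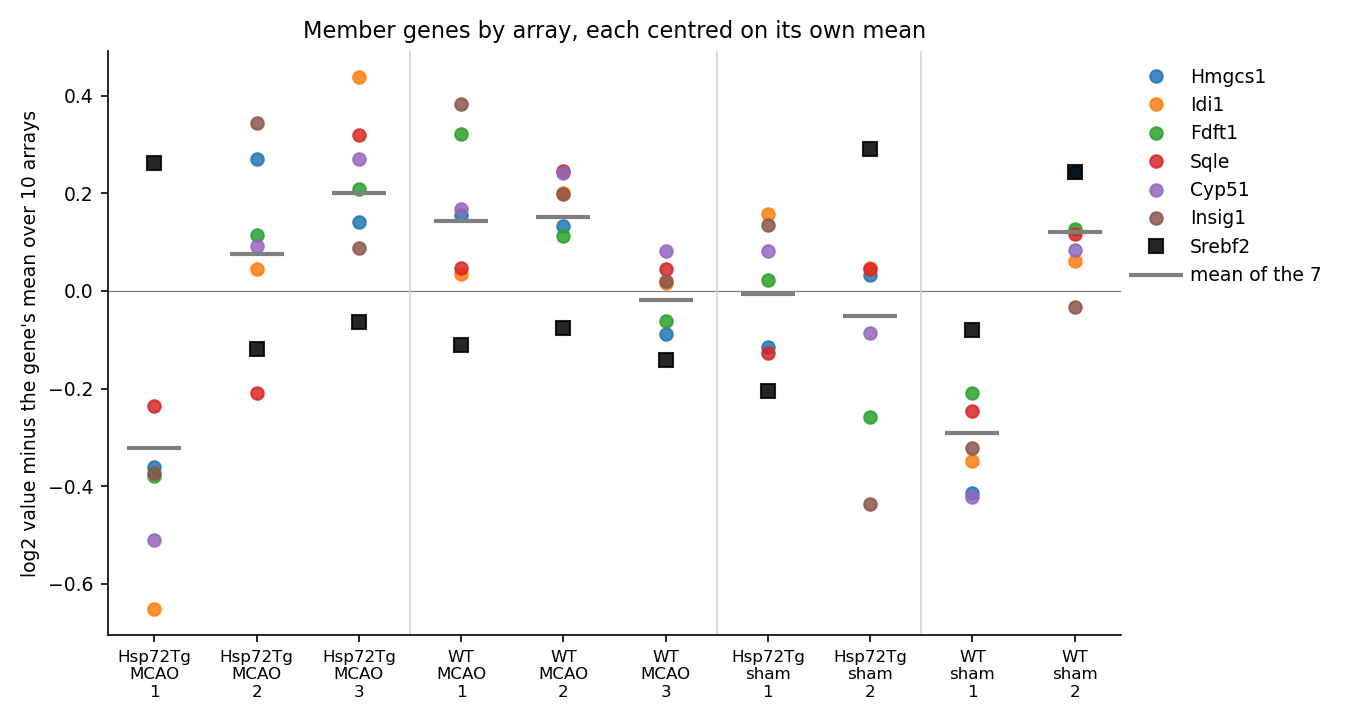
Log2 value of each gene minus its mean over the 10 arrays, by array; circles are the 6 genes other than Srebf2, black squares Srebf2, grey bars the mean of the 7, and vertical lines part the groups. The grey bars are lowest in Hsp72Tg MCAO 1 (-0.32) and WT sham 1 (-0.29), where the circles lie below 0, and Srebf2 is above 0 in Hsp72Tg MCAO 1.

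Among the 6 genes other than Srebf2, all 15 pairs correlated positively over the 10 arrays. Their Pearson r ran from 0.288 to 0.936 with a median of 0.75, and from 0.123 to 0.967 when each array was set against its group mean. Idi1 and Cyp51 had the highest Pearson r over the 10 arrays, while by Spearman rho Fdft1 and Cyp51 came first (0.867, permutation p = 0.00225, adjusted p = 0.0472). For Idi1 and Cyp51 Pearson r was 0.936 (permutation p = 0.00035, adjusted p = 0.00637 over 21 pairs) and Spearman rho 0.697 (permutation p = 0.0306, adjusted p = 0.0804). Of the 15 pairs, 10 had an adjusted permutation p under 0.05 by Pearson and 2 by Spearman. The share of all gene pairs that would reach this was not computed, so whether these counts are particular to the path cannot be said. The permutations also mixed arrays of different groups. The arrays Hsp72Tg MCAO 1 and WT sham 1 lay farthest from the median of the shared pattern. Without them the median r over the 15 pairs was 0.329, with a range of -0.185 to 0.829 over 8 arrays.

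Which pairs held without those arrays differed by gene. Fdft1 and Insig1 (0.829), Fdft1 and Cyp51 (0.796), Idi1 and Cyp51 (0.68), Cyp51 and Insig1 (0.666) and Idi1 and Sqle (0.642) kept an r above 0.6, and these pairs were picked out after their values were seen. Hmgcs1 and Idi1, with an r of 0.744 over 10 arrays (permutation p = 0.0136), had 0.0438 without those arrays, so that relation rests on them. The 6 pairs with Srebf2 all had an r below 0, from -0.693 with Insig1 to -0.0021 with Sqle. Only part of this held by other measures. Within groups r ran from -0.627 to 0.193, with Hmgcs1 (0.0391) and Sqle (0.193) above 0. Without the 2 farthest arrays these were again above 0, at 0.295 for Hmgcs1 and 0.232 for Sqle, and Spearman rho was above 0 for Hmgcs1 (0.0061), Idi1 (0.0182) and Sqle (0.139). The pair of Srebf2 and Insig1 had an r of -0.765 without those 2 arrays. Over 10 arrays its permutation p was 0.021 by Pearson (adjusted 0.0401) and 0.0483 by Spearman (rho -0.648, adjusted 0.101). The second probe set of Srebf2 was not used in these correlations, so whether it follows Insig1 in the same way was not tested. All genes of an array share its RNA and hybridisation.

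**Figure D4:**
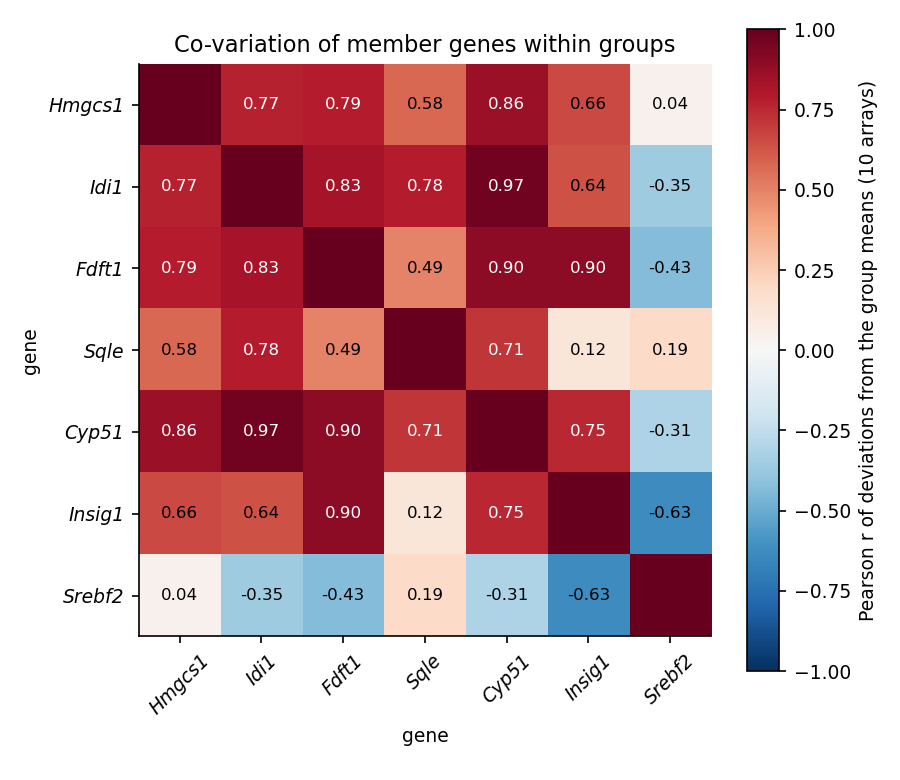
Pearson r between genes, computed from each array's deviation from its group mean over 10 arrays; red is positive, blue negative, and the numbers are r. The block of the 6 genes other than Srebf2 is positive throughout (0.12 to 0.97), and Srebf2 is negative with Insig1 (-0.63).

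Among the other 18186 genes, Msmo1 was closest to the mean pattern of the 7 over 10 arrays, with a Pearson r of 0.965. It encodes a sterol oxidase that acts after Cyp51 in the path. Hsd17b7, a reductase of the same stretch of the path, ranked 5 with an r of 0.902. The path membership of these genes was not used to rank them. Msmo1 read 10.34, 10.68 and 10.94 in Hsp72Tg MCAO and 10.75, 10.88 and 10.59 in WT MCAO, against 10.70 and 10.54 in Hsp72Tg sham and 10.24 and 10.74 in WT sham. Its lowest values were again in WT sham 1 and Hsp72Tg MCAO 1. The other named genes closest to the pattern were Mxd3 (0.929), Tmem156 (0.904) and Epb41l4a (0.892). Tmem156 was dim, at 4.64 to 5.108, below the lower quartile of every array (5.1355 to 5.2076), and Mxd3 read 5.561 to 5.892, not far above it. Not all genes of the path were close to it. Over 8 other sterol step genes r ran from 0.058 for Tm7sf2 to 0.965 for Msmo1. Over 4 other mevalonate genes it ran from 0.12 for Mvk to 0.79 for Pmvk. By list, the median r with the pattern was 0.60 for these sterol step genes and 0.63 for these mevalonate genes. Over all genes it was -0.044. It was 0.43 for 8 uptake and transport genes, 0.054 for 12 fatty acid genes, 0.011 for 10 efflux and oxysterol genes and -0.12 for 8 other SREBP regulators.

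Beyond the 7, the wider path was read through 6 lists with 58 further genes, of which 50 were measured. For MCAO over both genotypes 1 of these 50 passed, against 1.46% of all genes, and that gene was Ch25h. It encodes cholesterol 25-hydroxylase, whose product 25-hydroxycholesterol is a signal of sterol plenty that keeps SREBP2 in the endoplasmic reticulum. Ch25h read 7.36, 9.57 and 9.31 in Hsp72Tg MCAO and 8.20, 8.64 and 9.35 in WT MCAO, against 6.62 and 6.39 in Hsp72Tg sham and 6.05 and 5.72 in WT sham. All 6 MCAO arrays lay above all 4 sham arrays, as they did in 3.19% of all genes, and Hsp72Tg MCAO 1 was the lowest of them. It rose by 2.54 (SE 0.40, limma adjusted p = 0.0274). The rise was 2.89 without Hsp72Tg MCAO 1 (adjusted p = 3.09e-05). The call was lost without any 1 of the 4 sham arrays (adjusted p from 0.0565 to 0.115) or of the 3 WT MCAO arrays (0.0634 to 0.0915), with rises of 2.39 to 2.68. Within genotypes Ch25h did not pass, at 2.24 in Hsp72Tg (SE 0.57) and 2.84 in WT (SE 0.57).

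Some cell type markers also rose after MCAO, and whether they followed Ch25h from array to array was not tested. For MCAO over both genotypes, 3 of 10 microglia and macrophage markers, 3 of 10 endothelial markers and 9 of 10 reactive astrocyte markers rose, and 0 of these 30 fell, against 1.46% of all genes that passed in either direction. In value, 3 microglia and macrophage markers and 2 endothelial markers were lower: P2ry12 at -1.67 (SE 0.37, limma adjusted p = 0.0586), Tmem119 at -0.27, Aif1 at -0.0028, Slco1a4 at -0.79 (SE 0.30) and Tek at -0.25, none of which passed. Microglia and macrophage markers averaged 7.82 to 8.46 in Hsp72Tg MCAO and 8.08 to 8.40 in WT MCAO, against 7.47 to 7.62 in Hsp72Tg sham and 7.35 to 7.66 in WT sham. Endothelial markers averaged 8.23 to 8.96 in Hsp72Tg MCAO and 8.45 to 8.77 in WT MCAO, against 8.01 to 8.19 in Hsp72Tg sham and 7.83 to 8.01 in WT sham. Of the astrocyte (9), neuron (10) and cerebellar (8) markers, 0 passed. The part of these cells in the rise of Ch25h was not tested.

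**Figure D5:**
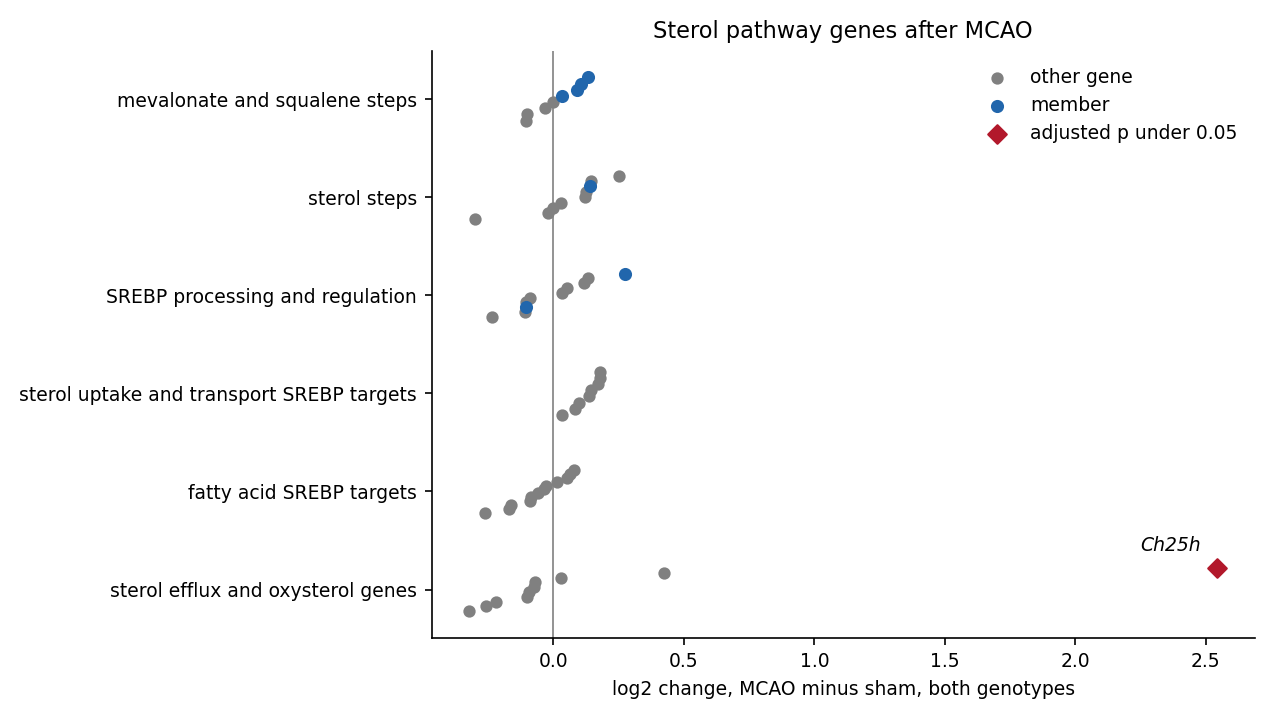
Log2 change over both genotypes, MCAO minus sham, of each measured gene in 6 sterol and lipid lists; blue points are the 7 genes, grey points other genes that did not pass, and the red diamond a gene with an adjusted p under 0.05. Ch25h stands at 2.54, and all other points lie between -0.32 and 0.43.

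The other lists held no gene that passed for MCAO over both genotypes. Of 8 mevalonate and squalene genes, 0 passed, with Mvk, mevalonate kinase, at -0.099 (SE 0.083), Mvd, mevalonate diphosphate decarboxylase, at -0.11 (SE 0.095) and Pmvk, phosphomevalonate kinase, at -0.030 (SE 0.083). Of 9 sterol step genes, 0 passed, with the sterol reductase Tm7sf2 at -0.30 (SE 0.12, limma adjusted p = 0.217), Hsd17b7 at 0.25 (SE 0.17) and Msmo1 at 0.14 (SE 0.14). The medians of these lists were 0.018 and 0.12. Of 10 genes for SREBP processing and regulation, 0 passed. Mbtps2 and Mbtps1, the proteases that cut SREBP, stood at -0.24 (SE 0.13) and -0.10 (SE 0.067), and Srebf1, which encodes SREBP1, at 0.12 (SE 0.072).

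Uptake and transport genes were all higher in value, as were 42.5% of all genes. Of these 8 genes 0 passed, with a median of 0.14 beside -0.03 over all genes. Npc1, which moves cholesterol out of lysosomes, stood at 0.17 (SE 0.080), Mylip, a ligase that degrades lipoprotein receptors, at 0.14 (SE 0.078) and the lipoprotein receptor Scarb1 at 0.18 (SE 0.10). Of 12 fatty acid genes 0 passed, with a median of -0.048. Acss2, which makes acetyl-CoA from acetate, stood at -0.26 (SE 0.073, limma adjusted p = 0.1), the acyl-CoA synthetase Acsl3 at -0.16 (SE 0.075) and the elongase Elovl6 at -0.17 (SE 0.12). Of 10 efflux and oxysterol genes Ch25h alone passed. Cyp27a1, a sterol 27-hydroxylase, stood at -0.32 (SE 0.090, limma adjusted p = 0.1). Apoe, the main apolipoprotein of brain, stood at -0.22 (SE 0.066, limma adjusted p = 0.117). For Acss2, Cyp27a1 and Apoe all 6 MCAO arrays lay below all 4 sham arrays, as they did in 3.41% of all genes.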

How the data were processed

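The authors deposited a table of log2 values; the submitters' processing notes name RMA, without version or settings. RMA removes background, equalizes the arrays' distributions and combines the probes of a set, so a whole-array shift would be lost. Of 45101 probe sets, 64 were controls and 34945 carried 1 gene symbol in the platform annotation. Through Entrez identifiers 34741 matched the RefSeq table of GRCm38.p6, and 0 symbols changed. The 7 genes had 18 probe sets in all. No scanner files were used, so no background flag was applied, and the number of arrays limits the precision.

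Tests used limma 3.58.1 in R 4.3.3 (lmFit, contrasts.fit and eBayes) on all 18193 genes, with a mean per group over all 10 arrays, residual degrees of freedom of 6 and prior ones of 3.72. Errors are SE of the contrast or SD within a group. The code was tested on simulated data. Nothing in the labels says which mice were littermates or processed together. Correlations used 100000 permutations of the arrays, two-sided, adjusted over 21 pairs.

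The members and lists were chosen with earlier results of these data known. Genes named beyond the 7 were, per list, those that passed for MCAO over both genotypes and, up to 3, those with the smallest p; the 5 genes most like the mean pattern; and Hspa1a and Hspa1b. Gabra6, the other single cell type markers and the motifs were chosen after their values or sequences were seen. The settings varied were a block for replicate number, a fit of the compared groups alone, other variance priors, array weights, quantile normalization, median centring, the mean over probe sets, each probe set alone, dim genes left out, and leaving out arrays. Some listed genes are not reported here.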

Additional observations from a re-analysis of the deposited data

How the results depend on the processing

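None of the 7 genes passed in any comparison under any setting run, by limma; the smallest adjusted p was 0.109. Of 850 values of the 7 genes under other settings, 757 kept their direction and 93 took the other. The number of genes passing over all genes ran from 11 to 2251 for MCAO over both genotypes. The labels do not say whether the replicate numbers pair the arrays. Deviations of same-numbered arrays from their group means correlated at -0.16 to 0.25. Differently numbered arrays were not compared, so these values cannot decide it. With the replicate block 0 of the 7 passed, and Ch25h stood at 2.25 (limma adjusted p = 0.11). Ch25h passed in 10 of 18 settings, with rises of 2.25 to 2.97 and adjusted p from 3.09e-05 to 0.115. The 2 or 3 arrays per group limit the precision of every value. The cause of the changes of sign was not tested. Leave-one-out values with a change of sign for MCAO over both genotypes were -0.060 to 0.27 for Hmgcs1, -0.088 to 0.18 for Idi1, -0.0014 to 0.18 for Sqle and -0.23 to 0.019 for Srebf2. Leave-one-out values with a change of sign for MCAO in WT were -0.18 to 0.48 for Hmgcs1, -0.0026 to 0.33 for Fdft1 and -0.0027 to 0.36 for Sqle. Leave-one-out values with a change of sign for MCAO in Hsp72Tg were -0.068 to 0.25 for Hmgcs1, -0.41 to 0.14 for Idi1, -0.042 to 0.28 for Fdft1, -0.18 to 0.10 for Sqle, -0.21 to 0.18 for Cyp51, -0.12 to 0.46 for Insig1 and -0.26 to 0.23 for Srebf2. Leave-one-out values with a change of sign for genotype after MCAO were -0.18 to 0.14 for Hmgcs1, -0.39 to 0.16 for Idi1, -0.26 to 0.037 for Fdft1, -0.37 to 0.017 for Cyp51 and -0.34 to 0.015 for Insig1. Leave-one-out values with a change of sign for genotype after sham surgery were -0.29 to 0.37 for Hmgcs1, -0.25 to 0.092 for Fdft1, -0.16 to 0.20 for Sqle, -0.086 to 0.42 for Cyp51, -0.26 to 0.31 for Insig1 and -0.29 to 0.21 for Srebf2. Leave-one-out values with a change of sign for the difference of the MCAO changes were -0.42 to 0.24 for Hmgcs1, -0.24 to 0.11 for Fdft1, -0.36 to 0.0030 for Sqle, -0.49 to 0.077 for Insig1 and -0.072 to 0.42 for Srebf2. With the replicate block, the sign turned with Idi1 at -0.071 for MCAO over both genotypes and with Sqle at -0.073 and Srebf2 at 0.013 for MCAO in Hsp72Tg. With array weights, the sign turned with Cyp51 at 0.036 for MCAO in Hsp72Tg and with Fdft1 at 0.038 for the difference of the MCAO changes. After quantile normalization, the sign turned with Srebf2 at 0.0046 for MCAO in Hsp72Tg. With centred medians, the sign turned with Sqle at -0.0088 for MCAO in Hsp72Tg. With the mean over probe sets, the sign turned with Srebf2 at 0.026 for MCAO in Hsp72Tg and with Hmgcs1 at 0.089 for genotype after MCAO. There too, the sign turned with Hmgcs1 at 0.031 for the difference of the MCAO changes. Without both WT sham 1 and Hsp72Tg MCAO 1, the sign turned with Hmgcs1 at -0.18, Fdft1 at -0.0026 and Sqle at -0.0027 for MCAO in WT and with Idi1 at 0.14 and Cyp51 at 0.18 for MCAO in Hsp72Tg. There too, the sign turned with Hmgcs1 at 0.14, Idi1 at 0.16, Fdft1 at 0.037, Cyp51 at 0.017 and Insig1 at 0.015 for genotype after MCAO and with Hmgcs1 at -0.29, Sqle at -0.16, Cyp51 at -0.086 and Insig1 at -0.12 for genotype after sham surgery. There too, the sign turned with Hmgcs1 at 0.42, Idi1 at 0.11, Fdft1 at 0.28, Sqle at 0.10, Cyp51 at 0.10 and Insig1 at 0.13 for the difference of the MCAO changes. Other probe sets of Hmgcs1 turned the sign with -0.024 for MCAO in WT and 0.026, 0.075, 0.12 and 0.27 for genotype after MCAO and with 0.00076, 0.0045, 0.052 and 0.19 for the difference of the MCAO changes. Other probe sets of Fdft1 turned the sign with 0.0017 for genotype after sham surgery and with 0.037 for the difference of the MCAO changes. Other probe sets of Srebf2 turned the sign with 0.039 for MCAO over both genotypes, 0.0095 for MCAO in WT and 0.068 for MCAO in Hsp72Tg and with 0.026 for genotype after sham surgery.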

Other observations

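Abca1, which exports cholesterol from cells, and Cyp46a1, the neuronal cholesterol 24-hydroxylase, were picked out after their values were seen. For MCAO over both genotypes Abca1 stood at 0.43 (SE 0.13, limma adjusted p = 0.117) and Cyp46a1 at -0.26 (SE 0.14, limma adjusted p = 0.341), and neither passed.

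The probe sets of a gene can be read against each other. Cyp51 had 3 probe sets, whose WT changes after MCAO were 0.33, 0.49 and 0.18, none of which passed in limma over all probe sets. The 2 probe sets of Idi1 gave WT changes of 0.23 and 0.29. Of the 5 probe sets of Hmgcs1, 4 gave a change over both genotypes of at most 0.10, and the dimmest gave 0.21 (SE 0.24). After MCAO, all 4 probe sets of Hmgcs1 other than the brightest were higher in value in Hsp72Tg than in WT, by 0.026 to 0.27, while the brightest stood at -0.05.

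Nsdhl, Stard4 and Pmvk, picked out after their values were seen, also ranked high in likeness to the mean pattern of the 7 genes over 10 arrays. Nsdhl, a sterol dehydrogenase that works after Msmo1, ranked 12 of 18186 with a Pearson r of 0.866. Stard4, a carrier of cholesterol between membranes, ranked 16 with 0.843, and Pmvk ranked 60 with 0.791. These are descriptions over the same arrays, in which Hsp72Tg MCAO 1 and WT sham 1 lie farthest from the rest.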
